A study of Bos grunniens and Bos grunniens x Bos taurus with 2 samples.

Results

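The 10 contractile muscle genes *ACTA2*, *ACTG2*, *MYH11*, *MYL9*, *MYLK*, *CNN1*, *TAGLN*, *TPM2*, *LMOD1* and *DES* were found by their symbols in the gene list of the testis data, 10 of 26961 features, and each symbol belonged to 1 feature. Their identifiers were ENSBGRG00000017216 for *ACTA2*, ENSBGRG00000010869 for *ACTG2*, ENSBGRG00000024236 for *MYH11*, ENSBGRG00000014570 for *MYL9*, ENSBGRG00000008571 for *MYLK*, ENSBGRG00000013580 for *CNN1*, ENSBGRG00000025309 for *TAGLN*, ENSBGRG00000004079 for *TPM2*, ENSBGRG00000025951 for *LMOD1* and ENSBGRG00000020017 for *DES*. They were followed through the cells of 2 single-cell libraries, 1 from testis of yak (Bos grunniens) and 1 from testis of cattle-yak (Bos grunniens x Bos taurus), both taken after sexual maturity. The cattle-yak is the hybrid of yak and cattle, and its males are known for a block in spermatogenesis. Both tissues had been frozen and thawed, cut and digested with collagenase, hyaluronidase and trypsin before the cells were captured in droplets and their transcripts were counted as unique molecular identifiers (UMIs). With 1 library for each group, every difference between the groups compares these libraries, not the crosses, and no test was possible. The sources label both libraries as germ cells, yet markers of muscle, vessels, stroma and immune cells were present in both.

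Smooth muscle cells shorten when calcium and calmodulin activate myosin light chain kinase, which lets a smooth muscle myosin pull on actin filaments that are wrapped by tropomyosin and held by dense bodies and desmin filaments. In the testis these genes are known from the muscle of the vessel walls, from pericytes, which are the mural cells of small vessels, and from peritubular myoid cells, which ring the seminiferous tubules and move their contents. Germ cells and lymphocytes have no contractile apparatus of this kind.

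The yak library held 11991 cells with 60816600 UMIs and a median of 2533 UMIs per cell, and the cattle-yak library held 8930 cells with 43774841 UMIs and a median of 3155. Of these, 10324 yak and 7092 cattle-yak cells passed the filters on complexity and mitochondrial content, and 24 barcodes occurred in both libraries. Cells were clustered without the 10 genes, without the other genes of the contractile pathway and without mitochondrial genes. Clusters were named from markers other than the 10 genes, so the classes did not rest on these 10. The lists of naming markers do share genes with the contractile pathway, such as *MYOCD*, *SMTN*, *SYNM* and *KCNMB1* for muscle and *ACTN1* for peritubular cells. The study itself used *ACTA2*, *MYH11* and *TAGLN* to name cells of the yak library, so the place of these 3 genes in muscle cells is not independent evidence. Levels are counts of a gene scaled to 1000000 UMIs of a class (CPM), with exact Poisson intervals at 95% that cover counting error only. Reads of the hybrid were counted on the yak annotation, and *ACTA2*, *ACTG2* and *ACTA1* are near-identical actins among which reads could be split, so their single levels are uncertain.

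Of the 10 genes, 9 were highest in muscle-like cells of both libraries, and *MYL9* could not be placed, since its muscle-like and peritubular-like intervals overlapped in each library. Together they made up 39207 CPM (39007 to 39408) in the 656 yak muscle-like cells and 38439 CPM (38258 to 38621) in the 845 cattle-yak muscle-like cells. The cells varied widely around these levels, with a median of 217.5 UMIs of the 10 genes and a range of 3 to 759 in the yak, and a median of 185 and a range of 2 to 729 in the cattle-yak. The muscle-like cells carried *MYOCD*, the coactivator of smooth muscle genes, at 49.6 and 40.9 CPM. This gene is on the list of markers used to name them. It was at 61.0 and 48.5 CPM in the peritubular-like cells with high *CYP11A1* described further on. *PDGFRA*, a marker of peritubular and stromal cells, was at 1.60 and 21.2 CPM in the muscle-like cells. A gene was called higher in a class when its log2 ratio to all other kept cells was at least 1. By this rule all 10 genes were higher in muscle-like cells of the yak, where 5.53% of the 11099 genes tested were, and all 10 in the cattle-yak, where 6.08% of 9379 genes were. The median log2 ratio of the 10 genes was 3.16 in the yak and 4.25 in the cattle-yak, against −0.47 and −0.26 over all genes tested. The other kept cells of each library include the peritubular-like and pericyte-like cells, which carry the genes as well.

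**Figure D1:**
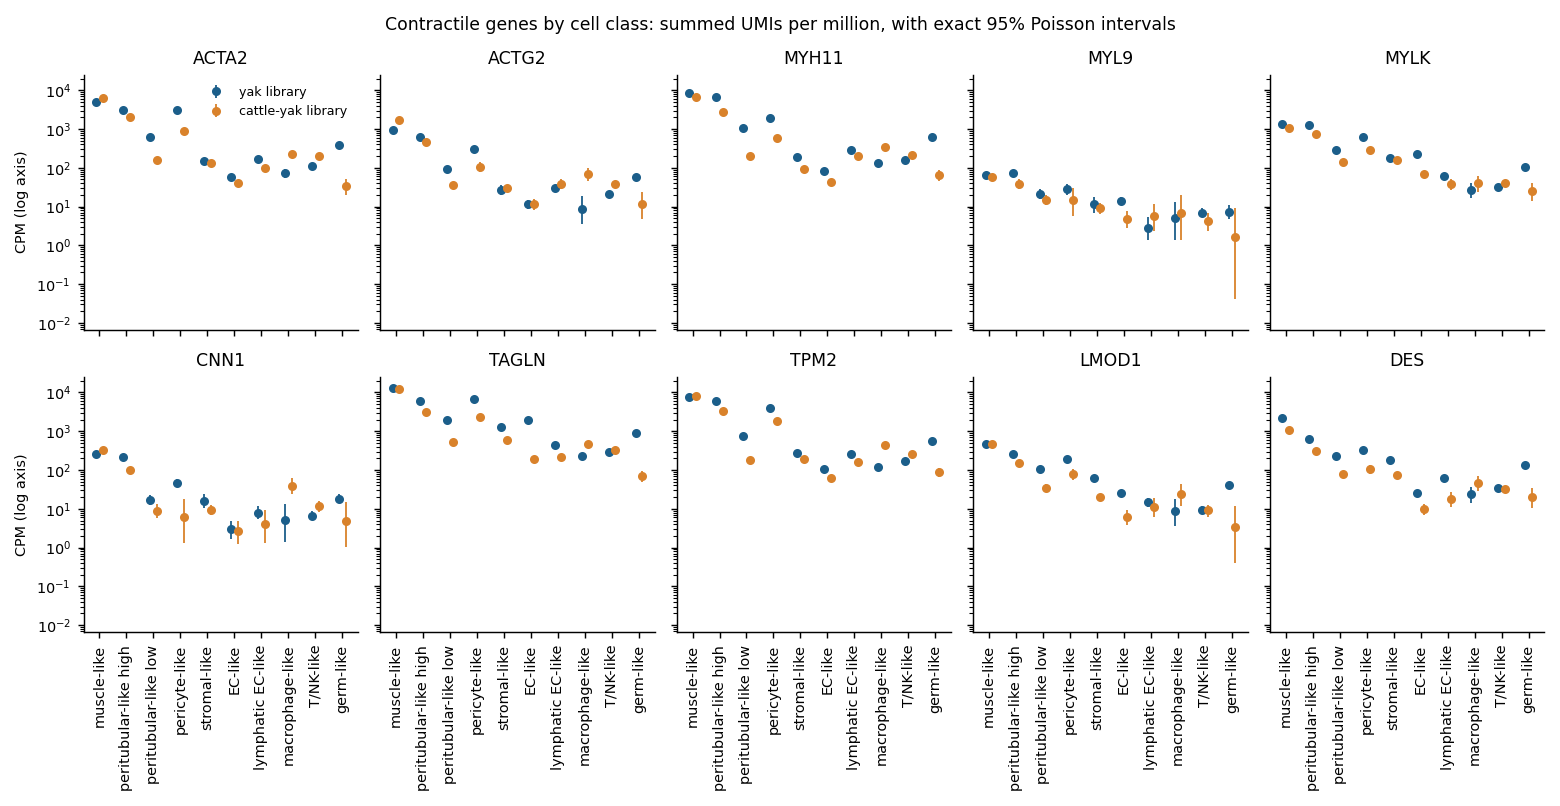
Level (CPM, log axis) of each of the 10 genes in 10 cell classes of the yak (blue) and cattle-yak (orange) library, with exact 95% Poisson intervals. Peritubular-like high and low are the clusters with high and low *CYP11A1*. The muscle-like points stand highest in each panel except for *MYL9*, where the intervals of the muscle-like and peritubular-like high points overlap in both libraries.

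The actin and myosin genes came first by role. *ACTA2*, the alpha actin of smooth muscle, was at 5097 CPM in the yak and 6362 CPM in the cattle-yak muscle-like cells, and the median cell held 27 and 31 UMIs. *ACTG2*, the gamma actin of visceral smooth muscle, was at 961 CPM (930 to 993) and 1670 CPM (1632 to 1708), higher in the cattle-yak library. *MYH11*, the heavy chain of smooth muscle myosin, was at 8500 and 6709 CPM, with up to 225 and 208 UMIs in a cell. *MYLK*, the light chain kinase that switches this myosin on, was at 1386 and 1081 CPM, lower in the cattle-yak library like *MYH11*. *MYL9*, a regulatory light chain, was detected thinly, at 65.1 CPM (57.2 to 73.8) and 58.1 CPM (51.2 to 65.6). Its median was 0 UMIs per muscle-like cell and its highest count was 4 in the yak and 3 in the cattle-yak, so that cells with and without it could not be told apart at this depth.

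The regulators of the thin filament followed. *TAGLN*, the actin-binding transgelin, was at 12754 CPM in the yak and 12483 CPM in the cattle-yak, and it had a UMI in 99.7% and 99.5% of muscle-like cells once each cell was thinned to 1000 UMIs. *TPM2*, a tropomyosin that covers the actin filament, was at 7530 and 8224 CPM. *CNN1*, calponin, which inhibits the myosin ATPase, was at 264 CPM (248 to 281) and 336 CPM (319 to 353). *LMOD1*, leiomodin, which seeds actin filaments, was at 466 CPM (444 to 488) and 460 CPM (441 to 481), with intervals that overlapped. *DES*, the intermediate filament desmin, was at 2183 CPM (2136 to 2231) and 1055 CPM (1026 to 1086), and the median muscle-like cell held 10 UMIs of it in the yak and 3 in the cattle-yak. Among the 10 genes, *DES* and *ACTG2* thus stood farthest apart between the libraries, in opposite directions.

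Finer clusters parted most of the muscle-like cells into 2 sets with different levels of these genes, which were seen in the data and not set beforehand. One was led by *NDRG4* and the other by the cation channel gene *TRPC6*. The NDRG4-led set held 492 yak and 416 cattle-yak cells, of which 491 and 415 were muscle-like. The TRPC6-led set held 193 yak cells, of which 150 were muscle-like, 36 pericyte-like and 7 of other classes, and 399 cattle-yak cells, all of them muscle-like. In neither set were 15 yak and 31 cattle-yak muscle-like cells. Summed pericyte markers were at 706 CPM in the NDRG4-led and 2920 CPM in the TRPC6-led cells of the yak, beside muscle markers at 3847 and 2499 CPM. The TRPC6-led values include the 36 pericyte-like cells. Among the muscle-like TRPC6-led cells of the yak the order turned, with muscle markers at 2723 CPM and pericyte markers at 2330 CPM. The lists differ in length, with 15 muscle and 12 pericyte markers. In the cattle-yak, pericyte markers were at 486 and 1273 CPM and muscle markers at 3546 and 2623 CPM. The part of the pericyte markers in the values that follow was not tested. The 10 genes summed to 41767 CPM in the NDRG4-led and 29349 CPM in the TRPC6-led cells of the yak, and to 46782 and 30907 CPM in those of the cattle-yak. *DES* was at 2594 against 721 CPM in the yak and at 1685 against 430 CPM in the cattle-yak, a log2 difference of 1.85 (1.74 to 1.96) and 1.97 (1.86 to 2.08). *CNN1* was at 306 against 118 CPM and at 495 against 185 CPM, a log2 difference of 1.38 (1.10 to 1.66) and 1.42 (1.25 to 1.59). *ACTG2* was at 1031 against 688 CPM and at 2325 against 1047 CPM, a log2 difference of 0.58 and 1.15. *ACTA2* went the other way by a little, at 4928 against 5450 CPM and at 6151 against 6847 CPM, a log2 difference of −0.15 in each library. Among the yak muscle-like cells alone, pericyte markers still were at 2330 CPM in TRPC6-led against 706 CPM in NDRG4-led cells. The difference was then 1.79 for *DES*, 1.25 for *CNN1*, 0.41 for *ACTG2* and −0.28 for *ACTA2* in the yak. The order of the sets was therefore alike in the libraries for *DES*, *CNN1*, *ACTG2* and *ACTA2*. Since *DES*, *CNN1* and *ACTG2* were left out of the clustering but belong to the same cells that were clustered, these values are a description.

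Between the libraries, the muscle-like cells differed little in the sum of the 10 genes and more in single genes. The sum differed by a log2 ratio (cattle-yak over yak) of −0.03 (−0.04 to −0.02). Among the genes, 1 of 10 was at least 1 lower on the log2 scale in the cattle-yak library, *DES* at −1.05 (−1.10 to −0.997), where 0.976% of the 3381 genes tested were lower, and none was higher, where 0.769% were. *ACTG2* was at 0.80 (0.74 to 0.85), *CNN1* at 0.35 (0.23 to 0.46) and *ACTA2* at 0.32 (0.29 to 0.35), all higher in the cattle-yak library. *MYLK* was at −0.36 (−0.42 to −0.30) and *MYH11* at −0.34 (−0.36 to −0.32). *TPM2* at 0.13 and *TAGLN* at −0.03 lay close to 0, and the intervals of *MYL9* (−0.42 to 0.09) and *LMOD1* (−0.11 to 0.08) held 0. The median of the 10 genes was −0.02 and that of all genes tested −0.12.

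These ratios moved with the make-up of the class. The yak muscle-like cells were 1 cluster, with 491 NDRG4-led and 150 TRPC6-led cells, and the cattle-yak cells were 2 clusters of 415 and 430 cells, with 415 NDRG4-led and 399 TRPC6-led cells. Within the NDRG4-led cells, *DES* was at −0.62 (−0.68 to −0.57) and *ACTG2* at 1.17 (1.11 to 1.24). There, 1 of 10 genes, *ACTG2*, was called higher in the cattle-yak library, where 1.46% of 2125 genes were, and none was called lower, where 0.941% were. Within the TRPC6-led cells, *DES* was at −0.74 (−0.89 to −0.60) and *ACTG2* at 0.61 (0.48 to 0.73). There, none of the 9 genes tested was called higher, where 0.71% of 1127 genes were, and none lower, where 3.11% were. *CNN1* was at 0.69 (0.56 to 0.82) and 0.66 (0.36 to 0.96) within the sets, more than in the class as a whole. The direction of *DES*, *ACTG2*, *CNN1*, *ACTA2*, *MYH11* and *MYLK* was the same in both sets, also when only their muscle-like cells were compared. *DES* was then at −0.80 and *ACTG2* at 0.43 in the TRPC6-led cells. *DES* also fell short of the call when cells at or above 20% mitochondrial UMIs were left out, at −0.24, and *ACTG2* was then called at 1.46. Under that limit *MYH11* was at 0.06 and *MYLK* at 0.07, so their direction turned. Summed pericyte markers were at 1038 CPM in the yak and 910 CPM in the cattle-yak muscle-like cells, and summed stromal markers at 664 and 1486 CPM. Their part in these differences was not tested.

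**Figure D2:**
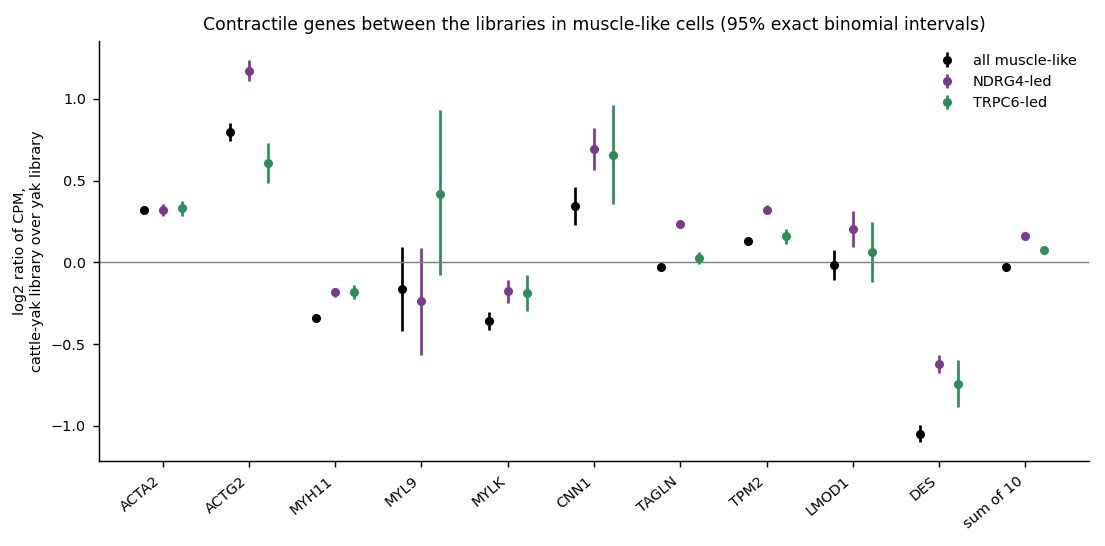
Log2 ratio of CPM of the cattle-yak library over the yak library for each gene and for the sum of the 10 in all muscle-like cells (black), NDRG4-led cells (purple) and TRPC6-led cells (green, with 36 pericyte-like cells in the yak), with exact 95% intervals. *DES* lies below 0 and *ACTG2* above 0 in all 3 sets of cells, and the sum lies between −0.03 and 0.16.

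Peritubular-like cells with high *CYP11A1* carried the contractile genes next to muscle-like cells. These clusters had markers of peritubular cells such as *PTCH1*, *SMOC2* and *PDGFRA*, but were led by *TNNI1*, *KRT18*, *CA3* and *CYP11A1*, a gene of steroid synthesis, and the split at *CYP11A1* was made after the data were seen. *PDGFRA* was at 1468 and 688 CPM, *CYP11A1* at 413 and 245 CPM and *KRT18* at 1589 and 1744 CPM in the yak and the cattle-yak. In the yak, summed peritubular markers were at 6195 CPM in these cells and at 2849 CPM in muscle-like cells. They were higher in stromal-like cells, at 7177 CPM, and in CYP11A1-low peritubular-like cells, at 10268 CPM, so this sum does not set the class apart from stroma. The 10 genes summed to 25116 CPM (24886 to 25347) in 389 yak cells and 13138 CPM (12936 to 13344) in 316 cattle-yak cells, or 64.1% and 34.2% of the muscle-like level. The median cell held 101 UMIs of the 10 genes in the yak and 35 in the cattle-yak, in cells with a median of 4547 and 3600.5 UMIs in all.

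In the yak these cells came close to muscle-like cells for several genes. *MYLK* was at 1264 CPM (1213 to 1317) and *MYH11* at 6794 CPM (6675 to 6915), or 91.2% and 79.9% of the muscle-like level. *MYL9* was at 72.6 CPM (60.7 to 86.1), with an interval that overlapped that of muscle-like cells. *TAGLN* at 5982 CPM and *DES* at 626 CPM stood farther below, at 46.9% and 28.7%. In the yak, 9 of 10 genes were called higher in these cells than in all other kept cells, where 7.66% of genes were, and *DES* was not. In the cattle-yak 4 of 10, *MYH11*, *MYL9*, *MYLK* and *TPM2*, were called, where 4.46% of genes were. The other kept cells hold the muscle-like cells, which were 6.35% of the kept yak cells and 11.9% of the kept cattle-yak cells.

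Between the libraries the sum in these cells was lower in the cattle-yak, with a log2 ratio of −0.93 (−0.96 to −0.91). All 10 genes lay below 0, from −0.45 for *ACTG2* to −1.30 for *MYH11*. *MYH11* at −1.30 (−1.36 to −1.25), *CNN1* at −1.07 (−1.38 to −0.78) and *DES* at −1.01 (−1.18 to −0.84) were called lower, 3 of the 9 genes tested, where 2.45% of 1226 genes were, and none was called higher, where 2.12% were. The median of the genes tested was −0.84 for the contractile genes and −0.18 for all genes. Summed markers of muscle were at 1906 CPM in the yak and 1290 CPM in the cattle-yak cells, with 2 and 3 of 15 markers at 0, and summed markers of stroma were at 5406 and 5839 CPM. *TNNI1* was level between the libraries, at 240 CPM (218 to 264) in the yak and 241 CPM in the cattle-yak. The CYP11A1-low peritubular-like cells, in which as many stromal as peritubular markers passed the naming rule, were at 5126 and 1395 CPM for the 10 genes, a log2 ratio of −1.88 (−1.93 to −1.83), with *MYH11* at −2.37 (−2.51 to −2.24). Summed peritubular markers were at 10268 CPM in the yak and 6063 CPM in the cattle-yak cells of that class, and summed stromal markers at 9309 and 13996 CPM, above the 10009 CPM of the cattle-yak stromal-like cells. Their part in the ratio was not tested. In the yak, 31.7% of those cells held 77.5% of the UMIs of the 10 genes, each with at least 20.

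Pericyte-like cells carried the genes in other proportions. They held *KCNJ8*, *ABCC9*, *HIGD1B* and *RGS5*, and no UMI of *CYP11A1* in either library. The 10 genes summed to 17349 CPM (17126 to 17574) in 245 yak cells and to 6254 CPM (6032 to 6481) in 110 cattle-yak cells, or 44.2% and 16.3% of the muscle-like level. *TAGLN* was at 6922 and 2354 CPM, *TPM2* at 3952 and 1861 CPM, and *ACTA2* at 3015 and 865 CPM. *MYH11* was at 1949 CPM (1875 to 2026) and 570 CPM (504 to 641). *CNN1* was at 46.6 CPM (35.7 to 59.8) in the yak and had 3 UMIs in all the cattle-yak pericyte-like cells. Against all other kept cells, *ACTA2*, *TAGLN* and *TPM2* were called higher in the yak, 3 of 10, where 4.49% of genes were, and no gene of the 10 in the cattle-yak, where 4.23% were.

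Set against the CYP11A1-high peritubular-like cells of the same yak library, pericyte-like cells had more *TAGLN*, by a log2 ratio of 0.21 (0.17 to 0.25), and less *MYH11*, by −1.80 (−1.86 to −1.74), and *CNN1*, by −2.20 (−2.61 to −1.81). *ACTA2* was nearly level, at −0.08 (−0.14 to −0.02). In the cattle-yak the *MYH11* ratio was −2.27 (−2.46 to −2.10) and the *TAGLN* ratio −0.42 (−0.52 to −0.32), so that *TAGLN* did not keep its direction. *MYH11* made up 11.2% of the UMIs of the 10 genes in yak pericyte-like cells and 9.11% in those of the cattle-yak, against 21.7% and 17.5% in muscle-like cells. In the yak the pericyte-like level of the sum was 2.26-fold below the muscle-like level, and that of *MYH11* 4.36-fold below.

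The pericyte-like cells of the cattle-yak held less of the contractile genes than those of the yak. The log2 ratio of the sum was −1.47 (−1.53 to −1.42), and −0.86 with clusters at resolution 2. Of the 245 yak pericyte-like cells, 36 belonged to the TRPC6-led set, against 0 of the 110 in the cattle-yak. The part of these 36 cells in the ratio was not tested. All 5 genes with at least 100 UMIs in both libraries were called lower in the cattle-yak, *ACTA2* at −1.80, *MYH11* at −1.77, *TAGLN* at −1.56, *TPM2* at −1.09 and *MYLK* at −1.06, where 4.29% of the 443 genes tested were lower, and none was called higher, where 2.71% were. The median of the 5 was −1.56 and that of all genes tested −0.11. The cattle-yak class was 1 cluster of 110 cells, and its median mitochondrial share was 25.1%, against 20.8% in the yak. Summed pericyte markers were at 6450 CPM in the yak and 5366 CPM in the cattle-yak, with none of 12 at 0, summed muscle markers at 1643 and 1221 CPM, and summed stromal markers at 1944 and 2934 CPM. Their part in the difference was not tested. In the bulk of a class, fewer contractile cells and less contractile RNA per cell cannot be told apart. The median cell held 78 UMIs of the 10 genes in the yak and 15 in the cattle-yak, and 89.4% and 41.8% of the cells held at least 20.

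**Figure D3:**
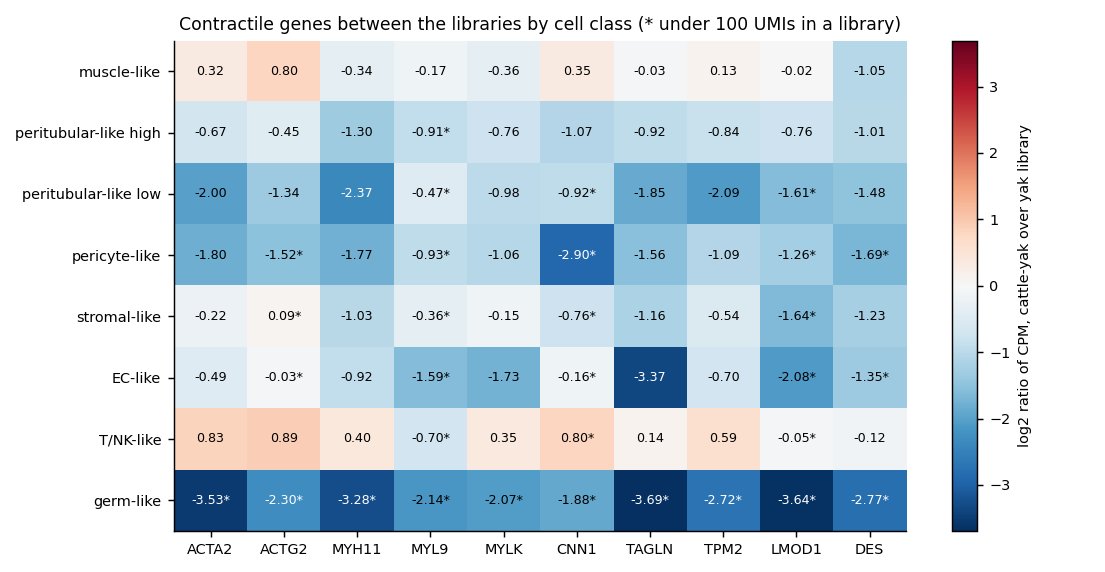
Log2 ratio of CPM of the cattle-yak over the yak library for the 10 genes (columns) in 8 cell classes (rows), red for higher and blue for lower in the cattle-yak. A star marks values that rest on under 100 UMIs in a library. The muscle-like row holds both colours, and the peritubular-like and pericyte-like rows are blue for all 10 genes.

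In stromal-like and endothelial (EC-like) cells *TAGLN* took a larger share of the 10 genes than in muscle-like cells. In stromal-like cells the 10 genes summed to 2420 CPM in the yak and 1316 CPM in the cattle-yak, and *TAGLN* made up 54.6% and 45% of their UMIs, against 32.5% in muscle-like cells of each library. In EC-like cells they summed to 2538 CPM (2495 to 2583) and 444 CPM (423 to 465). *TAGLN* alone was at 1992 CPM (1953 to 2031) in 837 yak EC-like cells and at 193 CPM (179 to 208) in 742 cattle-yak EC-like cells, a log2 ratio of −3.37 (−3.48 to −3.26). It held 78.5% of the UMIs of the 10 genes in yak EC-like cells and 43.5% in those of the cattle-yak. After thinning to 1000 UMIs, 71.3% (68.1 to 74.4) of yak EC-like cells had a UMI of *TAGLN*, against 13.1% (10.7 to 15.8) in the cattle-yak, 24.8% in yak T/NK-like cells and 12.5% in cattle-yak T/NK-like cells. The median depths were 5133 and 4441.5 UMIs in EC-like cells and 1942 and 2393 UMIs in T/NK-like cells. The share in the yak EC-like cells thus lay well above that of lymphocytes, while that in the cattle-yak EC-like cells was near it. Summed muscle markers were at 312 and 307 CPM and summed pericyte markers at 392 and 627 CPM in EC-like cells of the yak and the cattle-yak. Summed T/NK markers were at 171 and 18.9 CPM there and summed stromal markers at 68.9 and 311 CPM, and their part in the *TAGLN* difference was not tested. The ratio of *TAGLN* ranged from −3.49 to −1.28 over the alternatives, the weakest value being that without limits on genes and UMIs.

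**Figure D4:**
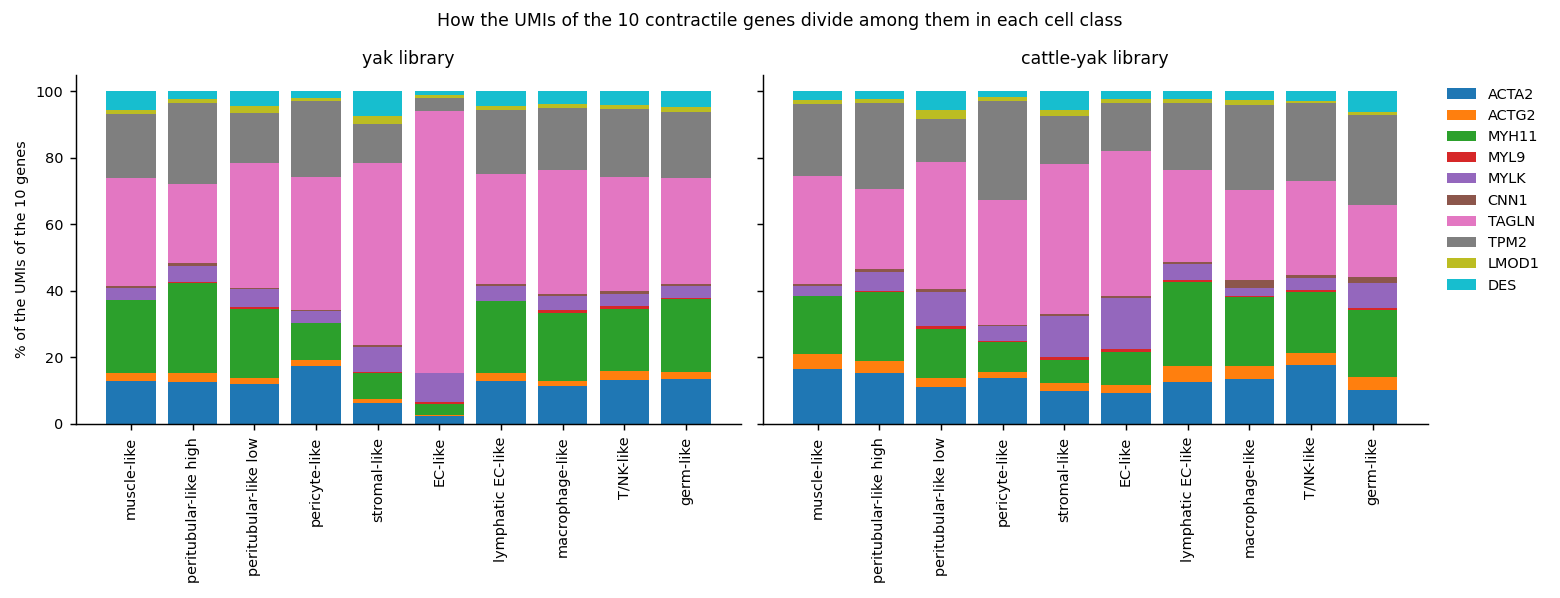
Share of each of the 10 genes in their summed UMIs, in % of the UMIs of the 10 genes, for 10 cell classes of the yak (left) and cattle-yak (right) library. In the yak, *TAGLN* and *MYH11* take similar shares of the T/NK-like, macrophage-like, lymphatic EC-like and muscle-like bars. *TAGLN* takes 54.6% and 78.5% of the stromal-like and EC-like bars in the yak and 45% and 43.5% in the cattle-yak.

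UMIs of contractile genes also occurred in cells that should lack them. T/NK-like cells held 848 CPM (828 to 868) of the 10 genes in the yak and 1130 CPM (1095 to 1166) in the cattle-yak. Muscle-like cells stood 46.2-fold above this level in the yak (log2 5.53, 5.50 to 5.57) and 34.0-fold above it in the cattle-yak (log2 5.09, 5.04 to 5.13). By gene, the muscle-like level was 9.41-fold (*MYL9*) to 62.0-fold (*DES*) above the T/NK-like level in the yak and 13.7-fold (*MYL9*) to 50.8-fold (*LMOD1*) above it in the cattle-yak. Few cells carried much of it in the cattle-yak. There, 34 of 1267 T/NK-like cells had at least 20 UMIs of the 10 genes and together held 66.0% of them, against 7 of 3692 cells with 9.59% in the yak. Without the T/NK-like clusters whose median was 4000 UMIs or more, the cattle-yak level was 420 CPM (395 to 446) and the distance from muscle-like cells was log2 6.52. Those clusters were led by cell cycle genes in 1 case and held 4 peritubular markers beside T cell markers in the other.

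In the yak, *TAGLN* and *MYH11* kept similar proportions in these cells, but not every gene did. By the folds given above, *MYL9* took a larger share of the 10 genes in yak T/NK-like than in muscle-like cells. *DES* took a smaller one. *TAGLN* made up 34.3% of the UMIs of the 10 genes in yak T/NK-like cells, 37.0% in macrophage-like cells and 32.9% in lymphatic EC-like cells, against 32.5% in muscle-like cells. *MYH11* made up 18.7%, 20.6% and 21.7%, against 21.7%. *ACTG2*, higher in cattle-yak than in yak muscle-like cells, was also higher in T/NK-like cells of the cattle-yak, at 38.8 against 20.9 CPM. *DES* was at 35.2 CPM in yak and 32.3 CPM in cattle-yak T/NK-like cells, with a log2 ratio interval that held 0 (−0.45 to 0.19).

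By CPM, germ-like cells lay above T/NK-like cells in the yak and below them in the cattle-yak, where the distance depended on the T/NK-like cells used. The classes differed in depth, with a median of 1168 UMIs in germ-like and 1942 UMIs in T/NK-like cells of the yak. In the cattle-yak the medians were 4016 and 2393 UMIs. At 1000 to 2000 UMIs the cattle-yak germ-like cells did not lie below T/NK-like cells, as given below. The 1369 germ-like cells of the yak held 2859 CPM (2801 to 2917) of the 10 genes, and the 118 of the cattle-yak held 322 CPM (278 to 370). Against T/NK-like cells of their own library this was a log2 ratio of 1.75 (1.71 to 1.80) in the yak and −1.81 (−2.03 to −1.60) in the cattle-yak. Against the shallower T/NK-like clusters alone it was 1.78 (1.73 to 1.82) and −0.39 (−0.61 to −0.16). Yak germ cells were also split by the cell types that the study assigned. In the 1127 typed cells, the level was 1274 CPM (1101 to 1466) in spermatogonial stem cells (SSCs), 5855 CPM (5666 to 6049) in spermatogonia (SPG), 727 CPM (631 to 833) in early spermatocytes (SPC), 2110 CPM (1982 to 2245) in late SPC and 3383 CPM (3168 to 3609) in spermatids (SPT). By CPM, SPG and early SPC were thus the ends of the range, and early SPC lay below T/NK-like cells. Per cell the order differed. Early SPC held 2.88 UMIs of the 10 genes (2.50 to 3.29), SSCs 2.32 (2.01 to 2.67) and T/NK-like cells 1.86 (1.81 to 1.90). The median depth was 979.5 UMIs in SPG and 1799.5 UMIs in early SPC. In the cells typed as SSCs, summed EC markers were at 2201 CPM, above summed germ cell markers at 712 CPM. The germ cell list includes genes of spermatocytes and spermatids, such as *SYCP1* and *ACRV1*, and the lists differ in length. These sums therefore put the name in doubt but do not settle it. The study named SSCs from known marker genes after clustering the germ cells again, and placed them first in its developmental trajectory. It also reported enrichment of stem cell pluripotency pathways among their marker genes, and BMX protein in SSCs by immunostaining. Germ cell markers were at 1930 CPM in SPG, 5050 CPM in early SPC, 3647 CPM in late SPC and 7021 CPM in SPT, above the EC markers of each. Among the typed germ cells, the 45 SPG with at least 20 UMIs of the 10 genes held 35.7% of the UMIs in SPG. In SPT, 4 of 224 cells reached 20 and held 32.4% of the UMIs. No SSC, early SPC or late SPC reached 20.

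The yak germ-like cells also held more than T/NK-like cells of like depth. In yak cells with 1000 to 2000 UMIs, germ-like cells held 7.17 UMIs of the 10 genes per cell (6.92 to 7.42), T/NK-like cells 1.59 (1.53 to 1.65), macrophage-like cells 2.03 (1.56 to 2.61) and EC-like cells 4.19 (3.70 to 4.72). In the cattle-yak at the same depth, germ-like cells held 1.13 (0.741 to 1.64), T/NK-like cells 0.775 (0.686 to 0.872) and EC-like cells 0.583 (0.406 to 0.811). The intervals of germ-like and T/NK-like cells overlapped there. After thinning to 1000 UMIs, *ACTA2* had a UMI in 28.2% (24.7 to 31.9) of 625 typed yak germ cells and in 10.8% (9.78 to 11.9) of 3495 yak T/NK-like cells. The 502 shallower germ cells and 197 shallower T/NK-like cells were left out, and without thinning the shares were 38.0% and 19.0%, at median depths of 1074 and 1942 UMIs. In the cattle-yak, *ACTA2* had a UMI in 3.03% (0.629 to 8.60) of 99 germ-like cells and in 8.27% (6.79 to 9.96) of 1221 T/NK-like cells. The median depths of these classes before thinning were 4016 and 2393 UMIs. The intervals overlapped, so the shares could not be ranked.

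In yak SPG the contractile genes were divided much as in muscle-like cells, with *TAGLN* at 31.7%, *MYH11* at 21.6%, *TPM2* at 19.9%, *ACTA2* at 13.5% and *DES* at 5.24% of the UMIs of the 10 genes. The corresponding shares in muscle-like cells were 32.5%, 21.7%, 19.2%, 13.0% and 5.57%. Markers of several other cell types were also higher in SPG than in early SPC. Summed muscle markers were at 611 against 116 CPM, pericyte markers at 367 against 112 CPM, stromal markers at 806 against 126 CPM, EC markers at 537 against 91.3 CPM and T/NK markers at 721 against 183 CPM. Epithelial markers went the other way, at 246 against 414 CPM. Of the 15 muscle markers, 2 were at 0 in SPG and 8 in early SPC. The types differed in depth, with a median of 979.5 UMIs in SPG and 1799.5 UMIs in early SPC. The part of free RNA, of cell fragments and of joined cells in these levels was not tested.

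**Figure D5:**
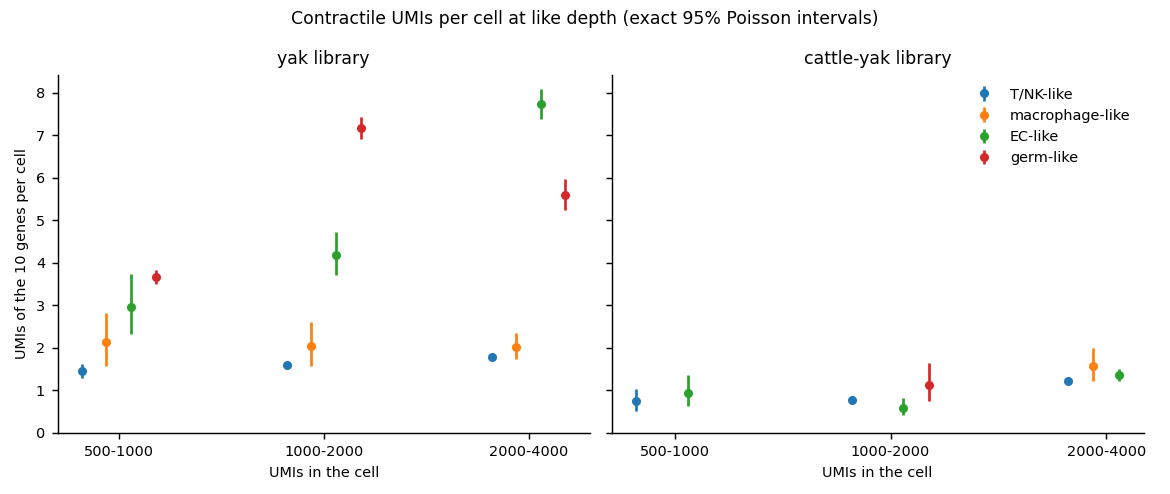
UMIs of the 10 genes per cell (linear axis from 0) in cells of like depth, by UMIs in the cell, for T/NK-like, macrophage-like, EC-like and germ-like cells of the yak (left) and cattle-yak (right) library, with exact 95% Poisson intervals. Yak germ-like cells stand at 7.17 and EC-like cells at 4.19 at 1000 to 2000 UMIs, and all cattle-yak points lie below 2.

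Other genes of the contractile pathway were in part higher in muscle-like cells as well. Some of them, such as *MYOCD*, *SMTN* and *SYNM*, are also on the list of markers that named these cells, so their calls are not independent of the name. Of 98 genes listed in 7 roles, 78 were found, and 33 of 63 tested in the yak and 36 of 61 in the cattle-yak were called higher, where 5.53% and 6.08% of all genes tested were. Called lower were 8 and 6, where 30.6% and 19.7% of all genes tested were. The median log2 ratio was 1.76 and 1.88 for the 22 genes of dense bodies and plaques, 17 and 18 of which were higher. Among them *FLNA*, the actin crosslinker filamin, was at 1173 CPM in the yak and 1127 CPM in the cattle-yak, and *VIM*, vimentin, at 2637 and 1705 CPM, not called against other cells in either library. *SMTN*, the smooth muscle protein smoothelin, was at 1070 and 1073 CPM, and *MYL6*, the essential light chain of myosin, at 5642 and 6939 CPM, each called higher in both libraries. *ACTB* at 1488 and 1283 CPM and *MYL12A* at 1026 and 839 CPM were spread over many classes, and *ACTB* was called in the cattle-yak.

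The genes that set the phosphorylation of myosin had a median log2 ratio of 1.47 and 1.37, and 6 and 5 of 10 were higher. *PPP1R12A*, the targeting subunit of myosin phosphatase, was at 1838 and 1738 CPM, and *PPP1R14A*, its inhibitor, at 1125 and 634 CPM. *PDE5A*, which breaks down cyclic GMP, was at 387 and 215 CPM, called higher in the yak muscle-like cells alone. The calcium channels *RYR2* at 210 and 163 CPM and *ITPR1* at 202 and 168 CPM were called higher in both libraries, among 4 and 5 of 6 genes of calcium handling. *MYOCD* was higher in both, among 2 of 8 and 2 of 6 transcription factors and coactivators, while 1 and 3 of them were lower, with a median log2 ratio of 0.39 and −0.51, and *FOXF1* was at 24.8 and 14.5 CPM, called lower in the cattle-yak.

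Receptors went the other way. None of the 5 receptors of contractile agonists tested was higher in muscle-like cells, and 3 in the yak and 2 in the cattle-yak were lower. The endothelin receptor gene *EDNRA* was at 41.9 and 66.3 CPM in muscle-like cells and at 316 and 281 CPM in CYP11A1-high peritubular-like cells. It was called higher in these peritubular-like cells of both libraries.

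Between the libraries, 1 of the 46 pathway genes tested in muscle-like cells was called lower in the cattle-yak and none higher, against 0.976% and 0.769% of all genes tested, so the count was near that of genes at large. The gene was *ACTA1*, the skeletal muscle actin, at 101 CPM (90.7 to 111) in the yak and 28.4 CPM (23.6 to 33.8) in the cattle-yak, a log2 ratio of −1.79. A control list of 23 skeletal and cardiac sarcomere genes, of which 17 were found, was called higher in muscle-like cells for 2 of 6 genes tested in the yak and 0 of 5 in the cattle-yak. In the CYP11A1-high peritubular-like cells, by contrast, 4 of 6 and 4 of 5 were higher, where 7.66% and 4.46% of all genes tested were, among them *TNNT2*, a cardiac troponin T, at 88.0 and 50.9 CPM, and *TNNI1*, a slow skeletal troponin I. *TNNT2* was at 10.1 and 4.69 CPM in muscle-like cells and *TNNI1* at 0 and 1.12 CPM. *MYL3*, a ventricular light chain, was at 11.5 and 8.49 CPM in muscle-like cells and was not called.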

How the data were processed

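The authors deposited, for each library, a table of raw UMI counts for every gene in every barcode, whole numbers without normalization, for barcodes called as cells by Cell Ranger. The file headers name Cell Ranger 5.0.0 and the submitters' processing notes 2.1.1, and the study's methods name a further version, with reads mapped by STAR to the yak genome. The 10 genes, the pathway lists and the cell type markers were chosen with earlier results of these data known.

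Cells were kept within 2 SD of the mean number of genes and UMIs and below 30% mitochondrial UMIs, the limits that the study gives, which did not leave the number of cells that it states. Libraries were clustered apart with scanpy 1.11.5 and igraph 0.11.9 (2000 variable genes, 30 components, 15 neighbours, Leiden resolution 1, seed 0) under Python 3.11.15, numpy 2.4.6, scipy 1.17.1, pandas 2.3.3, scikit-learn 1.9.0 and matplotlib 3.10.9. Left out of the clustering were 105 features of the 10 genes, the pathway lists and the skeletal and cardiac control list. The mitochondrial features were left out besides. A cluster was named from at least 3 markers that had a log2 ratio of at least 1 and were seen in 10% or more of the cluster. Clusters in which markers of a second class led stayed unnamed. Peritubular-like clusters were split where the log2 ratio of *CYP11A1* was at least 4, and the NDRG4-led and TRPC6-led cells were taken from clusters at resolution 2 with *NDRG4* or *TRPC6* among their top 10 genes and most of their cells in the muscle-like class, both chosen after seeing the data. Scrublet called 0 of 11991 yak cells, so it did not work there, and 251 of 8930 cattle-yak cells, and none was removed in the main setting.

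Counts were summed per class and scaled to CPM. Ratios of single genes were given without pseudocount and with exact conditional binomial intervals at 95%. Calls across genes used CPM + 1, at least 100 summed counts and a log2 ratio of 1. Cells were thinned to 1000 UMIs for shares, with exact binomial intervals. Intervals cover counting error only. Calculations were checked on simulated counts. Named genes were the 10 members, per role the 2 pathway genes with the highest CPM in yak muscle-like cells and the one that differed most between the libraries, the 5 genes with the most similar pattern over classes, and marker genes that check a class. *TNNI1*, *NDRG4*, *TRPC6*, *KRT18* and *CA3* were named after their values were seen. Feature ENSBGRG00000010006 held 8.00% of all counts.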

Additional observations from a re-analysis of the deposited data

Results flagged for a closer look

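Against T/NK-like cells of the same library, the summed contractile genes lay on opposite sides of 0 in the yak and the cattle-yak for 4 classes, and these differences were not tested, with 1 library each. The log2 ratio was 1.75 in germ-like cells of the yak and −1.81 in those of the cattle-yak, and 1.58 and −1.35 in EC-like cells. It was −0.41 and 0.58 in macrophage-like cells and 0.66 and −0.50 in lymphatic EC-like cells. The classes were not matched for depth in these ratios. The T/NK-like level of the cattle-yak, which each of its values shares, was 1130 CPM, or 420 CPM without the clusters whose median was 4000 UMIs or more. Against the latter the cattle-yak ratio was −0.39 in germ-like, 0.08 in EC-like, 0.92 in lymphatic EC-like and 2.01 in macrophage-like cells, so that EC-like and lymphatic EC-like cells lay on the same side of 0 as in the yak. Of the 102 cattle-yak macrophage-like cells, 2 held 79.6% of the UMIs of the 10 genes, and the rest held 1.56 per cell.

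Contractile genes were also above the T/NK-like level in cells outside the comparisons. In the yak they were at 7652 CPM in an unnamed cluster with markers of both pericytes and EC, at 2049 CPM in an unnamed cluster with immunoglobulin genes and at 4906 CPM in a shallow unnamed cluster with *PECAM1* and *TEK*. Yak cells above the limits on genes or UMIs held 3085 CPM, and those at or above 30% mitochondrial UMIs 7232 CPM. In the cattle-yak they were at 2145 CPM in an unnamed cluster with markers of pericytes and EC, at 1980 CPM in cells above the limits and at 1719 CPM in cells with a high mitochondrial share.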

How the results depend on the processing

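In each of 11 alternatives, all 10 genes were called higher in muscle-like than in other cells of either library. The log2 distance of muscle-like from T/NK-like cells in the yak and the cattle-yak was 5.29 and 5.67 without limits on genes and UMIs, 5.45 and 4.83 with a mitochondrial limit of 20%, 5.58 and 5.75 at resolution 2, 5.67 and 6.39 without the top 10% of doublet scores, 5.58 and 5.04 with a denominator free of mitochondrial transcripts and the 2 most abundant features, and 5.35 and 5.73 with each cell weighted equally. In the cattle-yak it was 5.32 with the 10 genes in the clustering, 4.97 at resolution 0.5 and 6.52 with the shallower T/NK-like clusters alone, the last added after seeing the data.

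The log2 ratio of the sum between the libraries in muscle-like cells had no fixed sign, at 0.0059 with the 10 genes in the clustering, 0.0090 without the top doublet scores, 0.43 with the 20% limit, −0.13 at resolution 0.5, −0.089 at resolution 2, 0.10 with the other denominator, 0.041 with equal weights, and 0.16 and 0.075 in the NDRG4-led and TRPC6-led cells, the latter −0.03 when only muscle-like cells were kept. The count of 1 called gene became 0 with the 10 genes in the clustering (*DES* at −1.0), without the top doublet scores (−0.99), with the other denominator (−0.92), with equal weights (−0.97), in TRPC6-led cells and at a log2 ratio of 2, and at the 20% limit the 1 gene was *ACTG2*. For the CYP11A1-high peritubular-like cells the ratio was −0.83 with the 10 genes in the clustering, −0.74 without limits, −0.86 at resolution 0.5, −0.81 at resolution 2, −0.85 without the top doublet scores, −0.75 with the other denominator and −0.996 with equal weights. For pericyte-like cells it was −1.69 with the 10 genes in the clustering, −1.86 without limits, −0.86 at resolution 2, −1.57 without the top doublet scores and −1.31 with the other denominator. Neither class was named in both libraries at the 20% limit, nor pericyte-like cells at resolution 0.5, so these gave no value. For typed yak germ cells against T/NK-like cells it was 1.71 without limits, 1.87 with the other denominator and 2.30 with equal weights, and the share of germ cells with *ACTA2* was 21.2% after thinning to 500 UMIs. Leaving out the 24 shared barcodes moved no value beyond counting error. The causes of these shifts were not tested.

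No paired analysis was possible because each group holds 1 library, and there was no replicate to leave out. Depth limited *MYL9*, all 10 genes in the cattle-yak germ-like cells and 5 of the 10 genes in the cattle-yak pericyte-like cells, which had under 100 UMIs each.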

Other observations

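Over 21 class levels of both libraries with at least 50 cells each, the genes whose pattern was most like the mean of the 10 were *MRVI1* (Pearson r = 0.951), *NEXN* (0.947), 2 features without a symbol, ENSBGRG00000003979 (0.932) and ENSBGRG00000011752 (0.930), and *DKK2* (0.926). *NEXN* was at 622 CPM in yak and 743 CPM in cattle-yak muscle-like cells, *MRVI1* at 205 and 125 CPM, and *DKK2* at 169 and 172 CPM. Among the 10 genes themselves, *ACTA2* and *TPM2* ran most alike (r = 0.993), and *CNN1* and *MYLK* least alike (r = 0.775). The points share their library and differ in depth, and the values are a description without a test.

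In the unnamed yak cluster of 309 cells with markers of pericytes and EC, which had a median of 10341 UMIs, *TAGLN* was at 3899 CPM and made up 51.0% of the UMIs of the 10 genes, between its shares in yak pericyte-like cells (39.9%) and EC-like cells (78.5%). Over all kept cells of a library, the 10 genes summed to 8121 CPM in the yak and 8175 CPM in the cattle-yak, and *DES* was at 339 and 231 CPM.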
